A study of Homo sapiens with 6 samples.

Results

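The genome was divided into windows of 100 kb (100000 bases), and 848 of the 2937 autosomal windows that could be measured (28.9%) had a mean CpG methylation of 20 to 60%. These 848 windows, with the 15666 CpGs that gave them their means, are described here. A CpG counted toward a window when it had at least 10 reads in each of the 6 libraries and lay in a CpG-sparse stretch. That was a 1 kb window holding 1 to 14 CpGs listed in any library. Sparse and dense here go by listed CpGs, which had to be read, and not by all CpGs of the sequence. A 100 kb window needed at least 10 CpGs that counted, and its mean was taken over these CpGs and over all 6 libraries with equal weight. Of the 94120 CpGs of this kind on the autosomes, 60661 lay in windows with enough of them, and the member CpGs made up 16.6% of the 94120. The members were thus chosen by their measured methylation in these same 6 libraries. Their levels below are therefore a description, and only the comparison of treated with control libraries and the levels of other CpGs inside the windows were tested. The latter test covers repeat libraries of 1 cell line and not a sample of windows.

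The libraries came from PC-3, an established human prostate carcinoma cell line, and were made from bisulfite-treated genomic DNA, in which unmethylated cytosines are read as T and methylated ones as C. S-adenosylmethionine (SAM), the methyl donor of DNA methyltransferases, was given at 160 µM for 5 days (3 libraries, called SAM), and 3 control libraries came from PC-3 cells kept with PBS over the same 5 days. No other treatment or genetic change is named in the labels, which also do not say whether the replicates were separate cultures. All p-values therefore measure the spread between these libraries only, which may be technical.

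In most human cells CpGs outside CpG-rich promoters are highly methylated, while CpG islands at the promoters of active and many inactive genes are kept free of methylation. In cultured cells and tumours, long stretches of the genome with few active genes can lose part of this methylation and take on disordered intermediate levels, and such stretches are known as partially methylated domains. A window can also reach an intermediate mean because it holds some fully methylated and some unmethylated CpGs, so the mean of a window alone does not tell these arrangements apart.

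The promoter sequences of 4 genes inside the 100 kb windows show elements of very different levels within windows of intermediate mean. Each line gives the 250 bases before the gene start in the direction of the gene, from RefSeq (GRCh38.p14), with capitals on the CpGs that were covered in all 6 libraries. Their places on hg19, the build of the deposited lists, were found by matching the spacing of the CpGs in the RefSeq sequence to the listed CpG positions. FILIP1L (filamin A interacting protein 1 like) and TRIL (an interactor of the innate immune receptor TLR4) were methylated promoters, ISYNA1 (inositol-3-phosphate synthase, of inositol synthesis) was intermediate, and LSM4 (a subunit of the LSm ring that binds U6 spliceosomal RNA) was unmethylated.
FILIP1L, chr3:99595018-99595267, minus strand: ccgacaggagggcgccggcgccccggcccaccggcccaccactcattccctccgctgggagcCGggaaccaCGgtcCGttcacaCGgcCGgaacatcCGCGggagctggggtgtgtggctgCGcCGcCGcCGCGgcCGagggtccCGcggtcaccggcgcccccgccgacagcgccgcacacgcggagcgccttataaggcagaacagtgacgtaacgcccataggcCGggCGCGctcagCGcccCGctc
TRIL, chr7:28997947-28998196, minus strand: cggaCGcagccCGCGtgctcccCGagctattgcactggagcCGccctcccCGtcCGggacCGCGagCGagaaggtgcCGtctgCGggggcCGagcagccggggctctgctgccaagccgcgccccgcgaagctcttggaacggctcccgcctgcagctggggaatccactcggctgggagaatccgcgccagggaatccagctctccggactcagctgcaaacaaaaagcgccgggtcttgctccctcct
ISYNA1, chr19:18548944-18549193, minus strand: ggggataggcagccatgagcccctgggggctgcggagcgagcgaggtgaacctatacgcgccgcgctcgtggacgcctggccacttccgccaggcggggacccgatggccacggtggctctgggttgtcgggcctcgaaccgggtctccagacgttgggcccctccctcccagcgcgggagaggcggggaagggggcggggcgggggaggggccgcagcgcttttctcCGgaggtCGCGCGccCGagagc
LSM4, chr19:18433887-18434136, minus strand: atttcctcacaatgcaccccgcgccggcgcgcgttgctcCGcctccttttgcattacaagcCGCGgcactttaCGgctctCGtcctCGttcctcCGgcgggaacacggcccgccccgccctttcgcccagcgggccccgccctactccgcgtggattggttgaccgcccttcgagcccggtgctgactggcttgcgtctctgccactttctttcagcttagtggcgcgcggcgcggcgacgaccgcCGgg
All of them are rich in CpG, with 38, 27, 29 and 35 CpGs in the 250 bases of FILIP1L, TRIL, ISYNA1 and LSM4, and a G and C content of 68.4 to 75.6%. Over the measured CpGs of the whole promoter (250 bases before to 50 after the start), FILIP1L had a level of 98.5% (29 CpGs), TRIL 98.4% (19 CpGs), ISYNA1 47.8% (14 CpGs) and LSM4 0.334% (13 CpGs). Of these measured CpGs, 19, 13, 5 and 8 lie in the printed bases of FILIP1L, TRIL, ISYNA1 and LSM4. The ISYNA1 level thus rests mostly on CpGs outside the printed bases, and most of its printed CpGs were not measured. ISYNA1 and LSM4 lie in the same run of adjacent member windows on chromosome 19.

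Total reads over listed positions ran from 33056018 to 183523792 per library, and the median depth at member CpGs from 35 to 151 reads. Between any pair of libraries, Pearson's r of the member CpG levels was 0.936 to 0.973 (across CpGs, which share libraries and windows). Coverage divides the 6 libraries otherwise than treatment does. Set A holds SAM 1, control 1 and control 3, and set B holds SAM 2, SAM 3 and control 2. These sets were taken from earlier results of these data. Total reads were 150331703 to 183523792 in set A and 33056018 to 120492978 in set B. The median depth at member CpGs did not part the sets, with 125 reads in SAM 1 and 133 in SAM 3. The labels name no batch. The identity of the cells was not tested, since methylation calls give no expression markers.

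A minority of the member CpGs were themselves partially methylated. Averaged over the 6 libraries, 6832 member CpGs (43.6%) were under 20%, 5373 (34.3%) were over 80%, and 3461 (22.1%) lay between. In single libraries the share between 20 and 80% ran from 19.9 to 21.9%. In the 1866 windows with a mean over 60%, 10.2% of 42022 CpGs were under 20% and 74.7% over 80%, and 15.1% lay between. In the 223 windows under 20%, 90.7% of 2973 CpGs were under 20%. Member windows thus held unmethylated and methylated CpGs side by side, which the choice of windows by their mean allows but does not require.

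**Figure D1:**
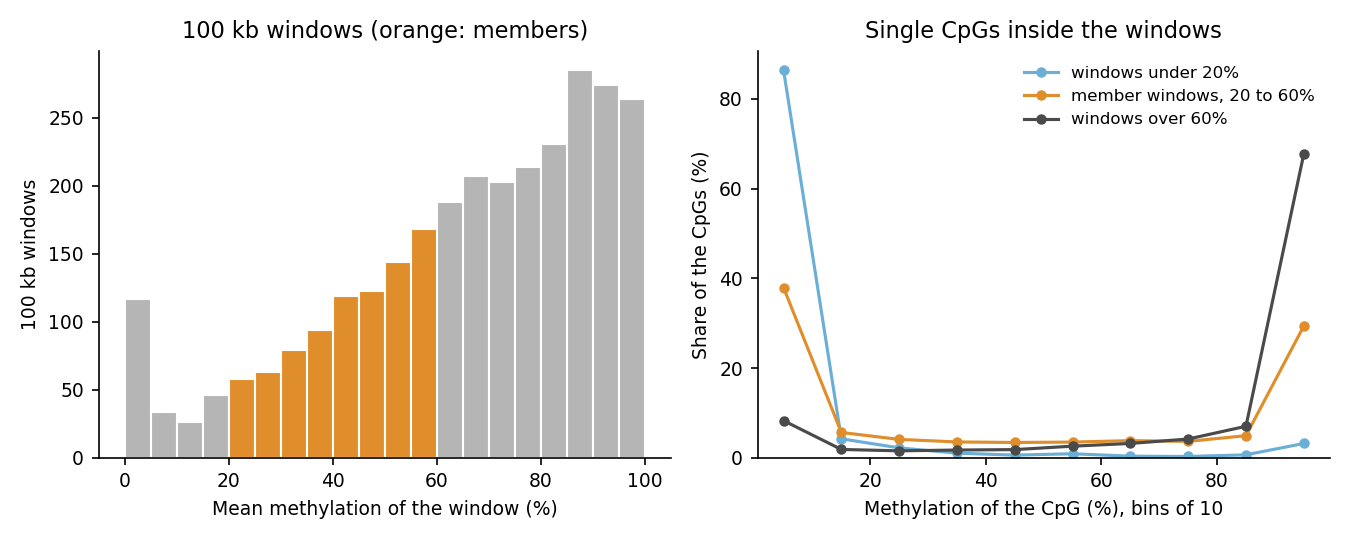
Left, number of 100 kb windows by mean methylation in bins of 5 percentage points, with the 848 members (20 to 60%) in orange. Right, share of single CpGs in bins of 10 percentage points for the 3 classes of window: the member CpGs pile up at both ends, with 43.6% under 20% and 34.3% over 80%.

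Member windows held a median of 15 member CpGs (10 to 103), and their means had a median of 45.9% (20.04 to 59.97%). There were 678 windows (79.95%) that held at least 3 CpGs under 20% and at least 3 over 80%. In 111 windows (13.1%) at least 50% of the CpGs were at 20 to 80%, the arrangement that the name partially methylated domain describes. In windows over 60% this count was 75 of 1866 (4.02%). The name was therefore not borne out by the CpG levels in most member windows, which are called windows of intermediate mean here.

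The mixture changed over short distances. The 4419 sparse 1 kb windows inside the members were at a mean under 20% in 1478 cases (33.4%), over 80% in 1579 (35.7%) and between in 1362 (30.8%). Differences between these 1 kb windows made up 88.2% of the variance of CpG levels within member windows. The same share was 79.7% in windows over 60% and 91.0% in windows under 20%. Pairs of member CpGs 2 to 10 bases apart differed by a median of 1.63 percentage points (7378 pairs), against 1.72 points in windows over 60% (16304 pairs). The median difference was 14.02 points above 200 and up to 1000 bases (4988 pairs) and 49.6 points above 1000 and up to 10000 bases (31046 pairs). In windows over 60% it was 6.17 points at that last distance (120629 pairs). Neighbouring CpGs of a member window were thus alike over the shortest distances, as in windows over 60%, and unlike over several kb.

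All 22 autosomes held members. As a share of the measured windows of a chromosome they ran from 19.7% on chromosomes 5 and 21 to 40.3% on chromosome 15, with 36.5% on chromosome 1, which had most of them (97). Of 704 runs of directly adjacent members, 592 were single windows, 89 were pairs and the longest spanned 6 windows. Of the 1408 ends of these runs, 994 (70.6%) met a window with too few CpGs to be measured, so the lengths are set largely by which windows were covered and do not give the extent of any domain. Among 702 neighbours of member windows that had enough CpGs, 288 (41.0%) were members too and 389 (55.4%) were over 60%. Windows over 60% had members as 20.7% of their 1880 measured neighbours.

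The longest run, chr14:104600001-105200000, held 153 member CpGs with a mean of 46.2%. Of these, 34.0% were under 20%, 39.2% at 20 to 80% and 26.8% over 80%. SAM libraries had 46.4%, 45.6% and 45.7% there and control libraries 46.8%, 45.1% and 47.3%. The groups overlapped. Among its promoters, ADSS1 (adenylosuccinate synthase of the purine nucleotide cycle, mainly of muscle) was at 0.293% over 5 CpGs and KIF26A (an atypical kinesin) at 5.20% over 6. TMEM179, a transmembrane protein gene, was at 21.7% over 26 CpGs. The lncRNA KIF26A-DT, read in the opposite direction from a promoter that overlaps that of KIF26A, was at 33.1% over 11 CpGs, with 21.5 to 38.1% in SAM and 32.8 to 37.8% in control libraries.

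**Figure D2:**
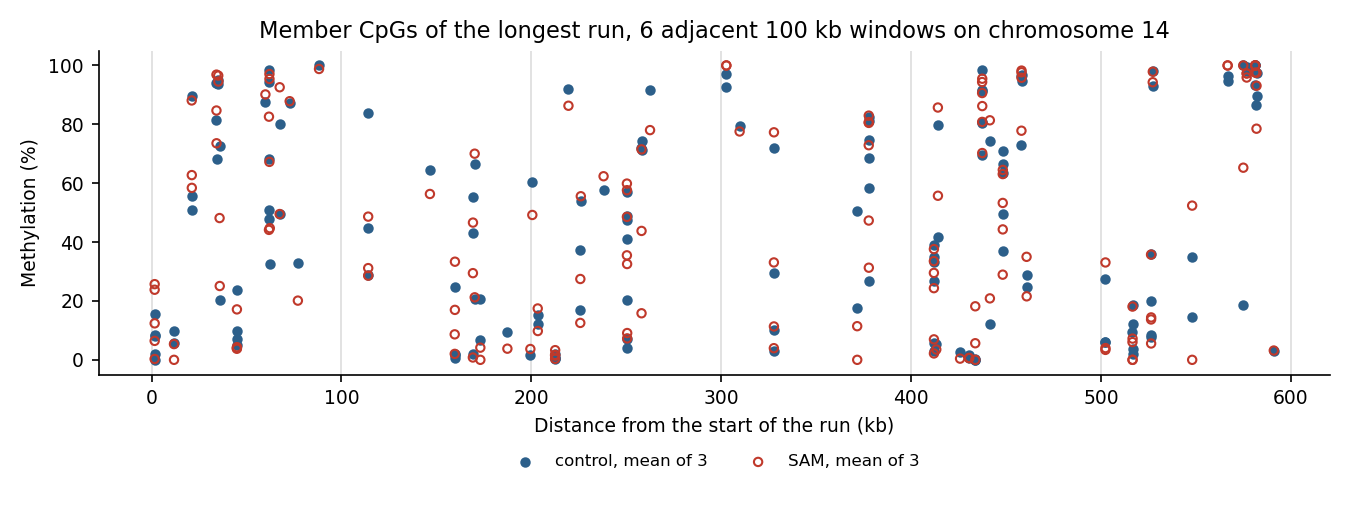
Methylation of the 153 member CpGs of the 6-window run on chromosome 14 against the distance from the start of the run in kb, with the mean of the 3 control libraries (filled) and of the 3 SAM libraries (open) for each CpG. Clusters near 0% and near 100% alternate along the run, and 39.2% of the CpGs lie at 20 to 80%.

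The next run, chr19:18300001-18800000, spanned 5 windows with 117 member CpGs and a mean of 44.7%. It was of the mixed kind, with 51.3% of CpGs under 20%, 7.69% at 20 to 80% and 41.0% over 80%. Its unmethylated promoters were MPV17L2 (a factor of mitochondrial ribosome assembly) at 0.134%, LSM4 at 0.334% and KLHL26 (a Kelch-like protein) at 0.317%. CRTC1 (a coactivator of CREB) was unmethylated too, with 0 methylated of 1017 read counts summed over 5 CpGs. A read over several of these CpGs counts more than once. Taken as separate reads the counts allow a level of up to 0.295%, so the limit is likely higher. The ISYNA1 promoter stood apart from these promoters. SAM libraries had 41.8%, 33.9% and 53.2% and control libraries 65.1%, 39.3% and 53.5%, so the groups overlapped and the libraries of a group differed widely (SD of 9.70 points with SAM and 12.9 points in controls).

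Of 4 runs that spanned 4 windows, the 3 with most member CpGs come next. The run chr17:77100001-77500000 had a mean of 41.0% with 40.2% of its 107 CpGs at 20 to 80%. The run chr8:142500001-142900000 had a mean of 41.9% with 48.96% of 96 CpGs at 20 to 80%. The run chr20:60100001-60500000 had a mean of 37.8% with 30.3% of 89 CpGs at 20 to 80%. SAM minus control was -0.00618, 1.45 and 1.23 percentage points in these runs, in the order given. In the chromosome 8 run the 3 SAM libraries (42.0 to 42.9%) lay above the 3 controls (40.6 to 41.6%), and in the other 2 the groups overlapped. The remaining run of this length, chr12:131700001-132100000, held 60 member CpGs with a mean of 48.6% and was 1.26 points higher with SAM, with overlap.

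The window with most member CpGs, chr1:3100001-3200000, had the highest share of intermediate CpGs among the 5 windows with most of them. Of its 103 CpGs, 63 were at 20 to 80%, 26 were under 20% and 14 were over 80%. SAM libraries had 42.8%, 46.4% and 42.9%, and control libraries 40.7%, 43.6% and 43.4%, with overlap. The other 4 were of the mixed kind. chr7:150700001-150800000 had 15 of 75 CpGs at 20 to 80%. chr19:49900001-50000000 had 15 of 73. chr19:13200001-13300000 had 7 of 71 and chr8:144400001-144500000 had 5 of 69.

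At the edges of the rule, the member of lowest mean was chr3:187400001-187500000 (16 CpGs, 20.04%), with 13 CpGs under 20%, 3 over 80% and none between. Its libraries had 19.2%, 19.6% and 19.6% with SAM and 18.3%, 23.4% and 20.2% in control. The next members inside that bound, on chromosomes 13 and 16, had 20.1% each, and the 3 windows just outside had 19.83%, 19.91% and 19.98%. The member of highest mean, chr12:128700001-128800000 (12 CpGs, 59.97%), had 8 CpGs at 20 to 80%, with 54.7 to 63.5% in SAM and 52.4 to 70.5% in control libraries. The next members below 60%, on chromosomes 9 and 17, had 59.9% each, and the 3 windows just above had 60.001%, 60.01% and 60.06%. The 6 windows next to each bound lay within 1 point of each other. For comparison, the SD between libraries was 0.204 points with SAM and 2.58 points in controls in the member of lowest mean, and 4.40 and 9.03 points in the member of highest mean.

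Level followed the number of listed CpGs per 1 kb inside member windows. Member CpGs in 1 kb windows with 1 to 4 listed CpGs had a mean of 61.0% (3817 CpGs), those with 5 to 9 had 48.4% (5767 CpGs) and those with 10 to 14 had 32.3% (6082 CpGs). Each of these values differed between libraries by less than 1 point (60.5 to 61.3%, 48.3 to 48.5% and 32.2 to 32.6%). In windows over 60% the same 3 classes had 80.9%, 81.5% and 80.1%. Within members the level was lower the more CpGs a 1 kb window listed, while in windows over 60% it stayed within 2 points. This is a description of CpGs that the rule had used.

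Levels were lowest next to unmethylated CpG-dense stretches that were measured, but most unmethylated member CpGs lay 10 kb or more from a measured one. An unmethylated dense window was taken as a 1 kb window with at least 15 listed CpGs, 3 or more of them covered in all libraries, and a mean under 20%. There were 532 member windows (of 848) and 1074 windows over 60% (of 1866) that held one. Member CpGs within 1 kb of such a window had a mean of 13.1% (2297 CpGs), and 81.2% of them were under 20%. The mean was 49.8% at 2 kb (389 CpGs), 59.5% at 3 to 4 kb and 58.3% at 5 to 9 kb. It then was 54.1% at 10 to 49 kb (5351 CpGs) and 44.8% at 50 kb or more (5618 CpGs). Sparse CpGs of windows over 60% were also lowest within 1 kb, at 37.3% (2370 CpGs, 55.7% of them under 20%). Their mean was 78.9% at 2 kb, 85.8% at 3 to 4 kb and 82.2% at 50 kb or more. Of the 6832 member CpGs under 20%, 1865 lay within 1 kb, 1949 at 10 to 49 kb and 2217 at 50 kb or more. Without the CpGs within 1 kb the member mean was 50.8%. These distances were chosen after the values were seen. Dense stretches with too few listed or covered CpGs did not count, so a nearer one may have gone unmeasured.

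**Figure D3:**
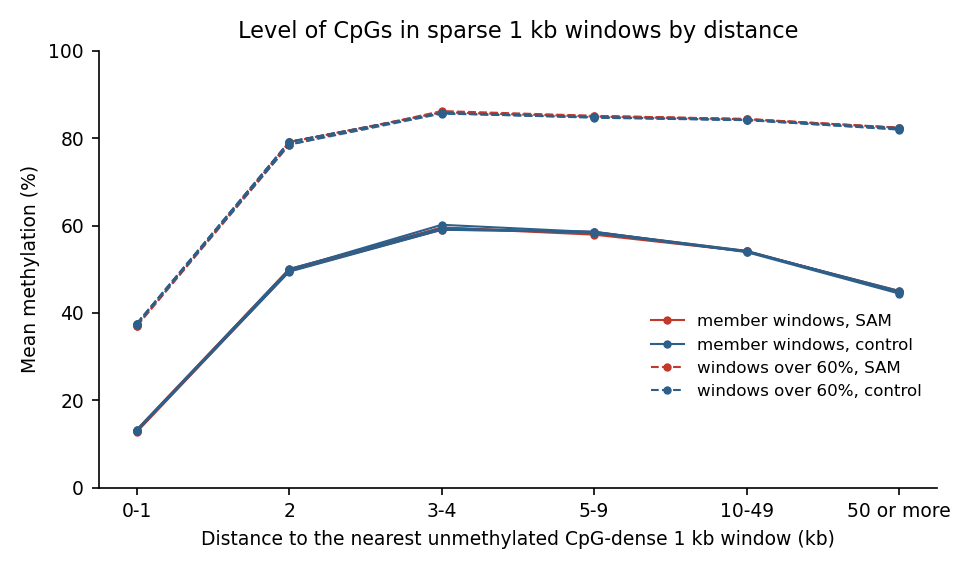
Mean methylation of CpGs in sparse 1 kb windows by distance (kb) to the nearest measured unmethylated CpG-dense 1 kb window. Each library has 1 line (red SAM, blue control), solid for member windows and dashed for windows over 60%. Member CpGs start at 13.1% within 1 kb, reach 59.5% at 3 to 4 kb and are at 44.8% from 50 kb on. CpGs of windows over 60% start at 37.3%, reach 85.8% and are at 82.2% over the same distances. The 6 libraries lie on top of each other.

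CpGs of the dense 1 kb windows took no direct part in choosing the members. They were less methylated inside members than inside windows over 60%. The level was 28.7% ± 0.0764 (SD, n = 3) for SAM and 28.8% ± 0.117 (SD, n = 3) for control libraries over 27612 dense CpGs in 669 member windows. The difference from the 74207 dense CpGs of windows over 60% was -6.74 ± 0.04997 percentage points (SD, n = 6), lower in 6 of 6 libraries (exact two-sided sign-flip permutation p = 0.031, the smallest that 6 libraries allow). The libraries are repeats of 1 cell line read at the same CpGs, so a difference between the CpG sets would take the same sign in nearly all of them. This p therefore speaks of the measurement and not of other cells or of a sample of windows. Nor are the dense CpGs independent of the choice, as they lie in the same windows as the CpGs that made it. Within 1 kb of an unmethylated dense window lay 14.7% of member CpGs, against 5.64% of the sparse CpGs in windows over 60%. How much of the difference comes with the choice of windows was not tested. Most of the gap lay in dense windows of 15 to 39 listed CpGs, at 35.9% in members and 49.6% in windows over 60%. With 40 or more listed CpGs the levels were 22.2% and 24.4%.

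Promoters gave the gene-level view of the same windows. A level was obtained for 4246 autosomal gene promoters with at least 5 covered CpGs, and 489 of them lay in 322 of the member windows. Of these 489, 418 (85.5%) were under 20%, 50 (10.2%) at 20 to 80% and 21 (4.29%) over 80%. In windows over 60% the shares of 968 promoters were 85.0%, 9.09% and 5.89%. The median promoter level was 0.552% in members and 0.567% in windows over 60%, although the means of these windows differ widely. Only CpGs of dense 1 kb windows made up 352 of the 489 promoters in members and 888 of the 968 in windows over 60%. The others held CpGs that the rule had used, so this comparison is a description and not separate from the choice of windows. Among the 8 gene families listed for this purpose (olfactory receptors, keratin-associated proteins, protocadherins, cadherins, defensins, GABA and glutamate receptors, zinc fingers and cancer-testis antigens), only the zinc finger list, taken by symbols that start with ZNF, had measured promoters in members, 15 of 16 under 20% and 1, ZNF135, at 40.9%. Zinc finger genes with other symbols, such as GFI1 and EGR1 below, are not in that list.

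Of the 21 methylated promoters in members, the 12 that belong to protein-coding genes are named, after their values were seen. GFI1, a zinc finger repressor of blood cell development, was at 99.8% over 7 CpGs in a window with a mean of 45.4%. FILIP1L had 98.6%, 98.3% and 98.3% in SAM and 98.4%, 98.6% and 98.5% in control libraries, in a window of 55.8%. TRIL had 97.9 to 99.8% in SAM and 97.7 to 98.4% in control libraries. The USP6 promoter, of a deubiquitinase gene, was at 97.4% over 5 CpGs in a window with a mean of only 20.5%. TPM2, beta-tropomyosin of the contractile apparatus, was at 97.3% and CETN1, a centrin of the testis, at 91.6% in a window of 26.0%. USP29 (98.4%), TCAF1 (93.2%), SAP25 (91.9%), DCDC2C (85.0%), LHFPL4 (82.1%) and the sorting receptor gene SORCS1 (81.0%) complete the 12.

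**Figure D4:**
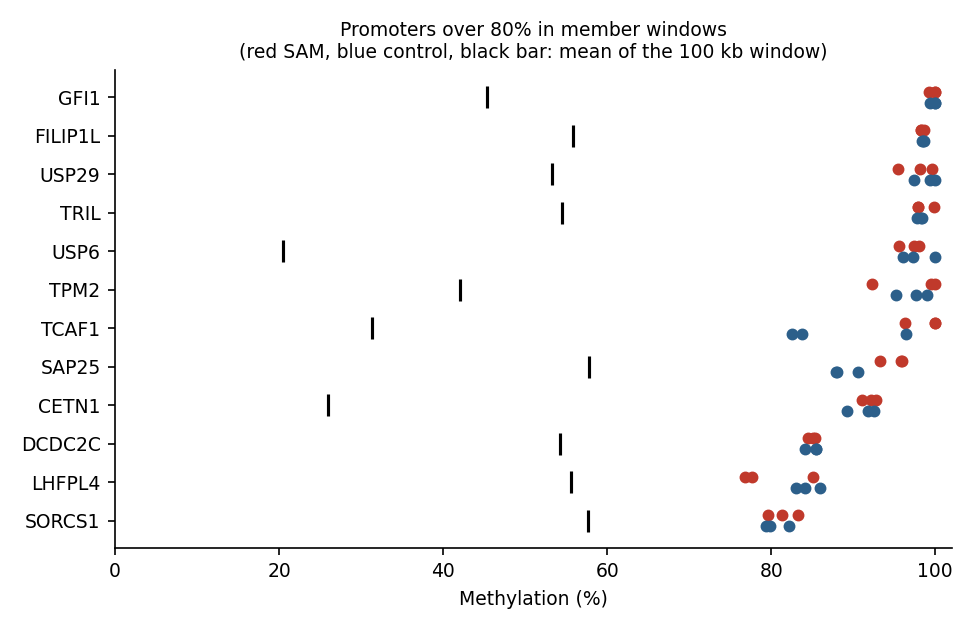
Mean methylation (%) of the 12 protein-coding promoters over 80% in member windows, 1 point per library (red SAM, blue control), with the mean of the surrounding 100 kb window as a black bar. The promoters range from 81.0% for SORCS1 to 99.8% for GFI1, and each lies to the right of its window's bar because promoters over 80% and windows under 60% were chosen.

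Of the 36 protein-coding promoters at 20 to 80%, 5 are named here, again after their values were seen. LHX3, a homeobox factor of the pituitary, was at 65.5%, with 51.5 to 67.9% in SAM and 64.1 to 76.7% in control libraries. The homeobox gene UNCX was at 45.5%, the potassium channel gene KCNA4 at 43.6% and the immediate early transcription factor EGR1 at 30.5%. RET, a receptor tyrosine kinase, was at 21.4% over 30 CpGs, with 18.1 to 24.0% in SAM and 20.1 to 23.5% in control libraries. All 10 measured CpGs of the KCNA4 promoter are themselves member CpGs and make up its window, with 27.4%, 60.2% and 38.6% in SAM libraries 1 to 3 against 42.1 to 47.8% in control libraries. The groups overlapped at all 5 of these promoters.

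The mean of the member CpGs, with equal weight per CpG, differed between the groups by less than the spread between libraries. SAM libraries had 45.3%, 45.2% and 45.2%, and control libraries 45.0%, 45.3% and 45.3%, with overlap. Group means were 45.2% ± 0.0809 (SD, n = 3) for SAM and 45.2% ± 0.161 (SD, n = 3) for control. SAM minus control was 0.0119 percentage points, standard error 0.104 (exact two-sided permutation p = 1, where 3 libraries against 3 cannot go below 0.1). Within coverage set A the difference was 0.158 points and within set B -0.154 points. Weighted by reads, SAM libraries had 46.6%, 44.4% and 47.1% and controls 47.2%, 48.9% and 48.4%, without overlap. That difference was -2.15 points (standard error 0.997, exact permutation p = 0.1). In that weighting the deepest 1% of member CpGs (157) held 19.6 to 21.2% of the reads of a library.

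The gap between members and windows over 60% was wider with SAM by a small amount. With equal weight per CpG, windows over 60% were 0.202 points higher with SAM, while the member mean was 0.0119 points higher and did not fall. The level in windows over 60% was 81.0% ± 0.0235 (SD, n = 3) for SAM and 80.8% ± 0.0843 (SD, n = 3) for control libraries, without overlap (exact permutation p = 0.1). Member minus windows over 60% was -35.8 ± 0.0608 points with SAM and -35.6 ± 0.105 points in controls, so the SAM value was lower by 0.190 points with a standard error of 0.0700 (n = 3 and 3, exact permutation p = 0.1, no overlap). The difference was -0.118 in set A and -0.248 in set B. It was -0.0352 with windows of at least 20 CpGs and -1.81 weighted by reads (standard error 1.23, exact permutation p = 0.3). Dense CpGs inside members differed by -0.105 points (standard error 0.0806, exact permutation p = 0.3). For these the value was -0.00891 in set A, -0.184 in set B and -2.01 weighted by reads (standard error 3.11, exact permutation p = 0.7).

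**Figure D5:**
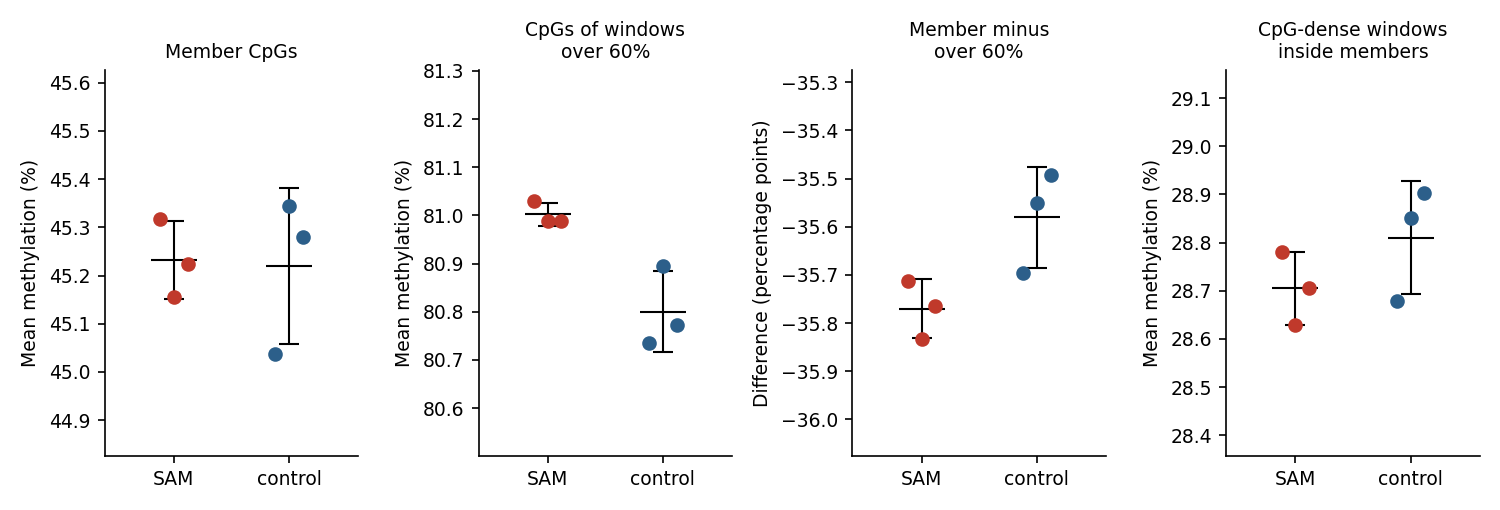
Per-library means (points, red SAM, blue control), with the group mean and SD (bars, n = 3), for member CpGs, CpGs of windows over 60%, the difference of these (percentage points) and CpG-dense windows inside members. Each axis spans 0.8 points and does not start at 0: the groups overlap for member CpGs and dense CpGs and do not for the other panels.

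Split by level, member CpGs over 80% had 95.6%, 95.9% and 95.5% in SAM and 95.1%, 95.3% and 95.1% in control libraries. All SAM values lay above all control values, by 0.486 points on average (standard error 0.141, exact permutation p = 0.1). Member CpGs at 20 to 80% were lower with SAM by 0.529 points (standard error 0.356, exact permutation p = 0.3), and those under 20% by 0.0867 points (standard error 0.115, exact permutation p = 0.7), both with overlap. The 111 windows with mostly intermediate CpGs (1801 CpGs) had 46.9% with SAM and 47.2% in controls, a difference of -0.276 points (standard error 0.236, exact permutation p = 0.4). These classes were set after values were seen. At single member CpGs of 20 to 80% the median SD between the 3 libraries was 8.87 points in SAM and 8.77 points in controls, against 5.71 and 5.88 points from read counting alone.

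By chromosome, the member mean was higher with SAM on 11 autosomes and lower on 11. The differences ran from -0.897 points on chromosome 21 to 0.629 points on chromosome 6. The groups overlapped on all 22, and the smallest exact permutation p after Benjamini-Hochberg adjustment over the 22 was 0.943. With 3 libraries a group, no chromosome could have passed.

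No member window passed the test across all windows. Summed methylated and unmethylated reads of 2936 windows were compared with edgeR's quasi-likelihood test, and 0 windows (0%) had a Benjamini-Hochberg adjusted p under 0.05, members or not. At an unadjusted p under 0.05 there were 12 of 848 members (3 higher, 9 lower), against 34 of all windows (1.16%). With limma on the log2 ratio the calls were 0 as well, and 14 members had an unadjusted p under 0.05 (45 of all windows, 1.53%). With limma on the mean percent of the windows, 0 were called and 50 members had an unadjusted p under 0.05 (147 of all windows, 5.01%). Groups did not overlap in 40 members with higher and 45 with lower values under SAM, together 10.02% of members. Over all windows 6.3% were higher and 4.12% lower without overlap, so the members stood near this background in sum.

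The 5 members with the smallest edgeR p had an adjusted p of 0.9998 each (edgeR), and their plain means hardly differed. In chr4:6700001-6800000 (16 CpGs) the summed reads were 38.1% methylated with SAM and 15.9% in controls, but the mean over CpGs was 30.3% ± 1.83 (SD, n = 3) and 28.4% ± 2.84 (SD, n = 3). In chr7:76100001-76200000 (20 CpGs) the summed reads gave 23.2% and 39.5%, while the means were 47.9% and 47.8%. In chr10:89100001-89200000 (11 CpGs), with up to 33199 reads in a library, the summed reads gave 2.45% and 4.35% and the means 44.7% and 44.0%. The windows chr9:135900001-136000000 and chr18:55700001-55800000 differed by 0.654 and 0.294 points in their means. In all 5 the groups overlapped in the means over CpGs, which weight every CpG alike, whereas the summed reads weight each CpG by its depth.

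A few member windows had large differences. Of the 10 windows (0.34% of all) whose means differed by over 10 points, 9 were members, 4 higher and 5 lower with SAM, and they rested on 10 to 16 CpGs in 2 to 6 windows of 1 kb. They are named after their values were seen. In chr21:21100001-21200000 (11 CpGs) SAM libraries had 51.4%, 48.8% and 50.7% and control libraries 67.3%, 58.8% and 79.7%. The groups did not overlap, and the control libraries differed among themselves by more than the SAM libraries. In chr5:178800001-178900000 (14 CpGs) SAM libraries had 40.1%, 36.9% and 35.6% and control libraries 28.2%, 23.8% and 25.4%, a difference of 11.7 points without overlap. The windows chr1:48000001-48100000 (13.3 points) and chr21:30400001-30500000 (10.9 points) were also higher with SAM without overlap. In the other 5 the groups overlapped, as in chr1:41800001-41900000, where SAM libraries had 83.8%, 37.8% and 65.2%.

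Among single member CpGs, 13486 of 15666 could be tested (the others had no methylated or no unmethylated read in any library). None had an adjusted p under 0.05 with edgeR's quasi-likelihood test over 257696 CpGs (0% of all), and none with limma on the log2 ratio. At an unadjusted p under 0.05 there were 310 members with edgeR (155 higher, 155 lower), against 2.81% of all CpGs tested, and 449 with limma, against 3.49%. Groups did not overlap at 551 member CpGs with higher (3.52%) and 422 with lower values under SAM (2.69%). Over all CpGs covered in the 6 libraries these shares were 2.7% and 2.19%, and in windows over 60% they were 4.37% and 2.67%.

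The 5 member CpGs with the smallest edgeR p all had an adjusted p of 0.890 (edgeR). The largest differences among them were at chr15:102079853-102079854, with 41.2%, 42.9% and 29.8% in SAM and 100% in each control library (10 to 121 reads), and at chr12:123636149-123636150. The latter had 0% in every SAM library and 49.02%, 51.5% and 67.9% in control libraries (16 to 110 reads), and the 0 methylated reads over the 3 SAM libraries allow a level of up to 1.76%, for counting error only. The CpG chr7:1270534-1270535 had 100%, 100% and 99.89% with SAM and 77.4%, 95.5% and 86.0% in controls. The CpGs chr11:114069953-114069954 and chr20:30667614-30667615 differed by -7.36 and 5.95 points. The groups did not overlap at any of these 5, which the ranking by p favours.

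No promoter in a member window had an adjusted p under 0.05 (edgeR, 475 of 489 tested among 4132 promoters, 0% of which were called). At an unadjusted p under 0.05 there were 12 (6 higher, 6 lower) with edgeR, against 3.1% of all, and 19 with limma on the log2 ratio, which called 0, against 4.11%. Groups did not overlap at 20 promoters with higher and 15 with lower values under SAM, beside 3.74% and 3.89% of all promoters. The 5 with the smallest edgeR p (adjusted p 0.9995 each, edgeR) were PLCD3, CTNNBIP1, NUMBL, DRC4 and CPAMD8. CTNNBIP1, an inhibitor of beta-catenin, had 2.09%, 1.15% and 1.85% with SAM and 0% in each control library. The controls had 0 methylated of 2000 read counts summed over 13 CpGs, where a read over several CpGs counts more than once. Taken as separate reads these counts allow up to 0.15%, so the limit is likely higher. PLCD3, a phospholipase C, had 0.688% ± 0.340 (SD, n = 3) for SAM and 0.0356% ± 0.0388 (SD, n = 3) for control libraries. NUMBL and DRC4 were also under 2% in every group, so that these 4 are differences of under 2 points at unmethylated promoters. CPAMD8 was intermediate, at 23.8%, 31.2% and 15.2% with SAM and 26.1%, 25.4% and 22.5% in controls, with overlap. Among the methylated ones, SAP25, a subunit of the Sin3A corepressor, had 95.9%, 96.0% and 93.3% with SAM and 88.0%, 87.9% and 90.6% in controls, without overlap.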

How the data were processed

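CpG methylation was measured in 6 PC-3 libraries. Each deposited list holds single cytosines with a read count (coverage) and the percent of C and of T among those reads, per the file headers, on hg19 per the submitters' processing notes, which also name CASAVA 1.8.2, FastQC 0.10.0, Bismark 0.7.4 and methylKit 0.5.3. How reads were filtered or deduplicated is not stated per the labels, so copies made by PCR cannot be told from separate molecules and read counts overstate the precision.

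Methylated counts were recovered from coverage and percent C, and both strands of a CpG were summed. The members, gene families, level classes, distances, coverage sets and promoter tests were chosen with earlier results of these data known, and the rule for named windows and CpGs takes the longest runs, the largest and the extreme windows, those next to each bound and those with the smallest p. Library means were compared with exact permutation tests. Reads of 2936 windows, 257696 CpGs and 4132 promoters went through edgeR's quasi-likelihood test (version 4.0.16 in R 4.3.3), with Benjamini-Hochberg adjustment over each and a threshold of 0.05, leaving out features with 0 methylated or 0 unmethylated reads. limma 3.58.1 was the other tool, on log2 ratios after adding 1 read and on mean percent. Both edgeR and limma on log2 ratios were run on simulated windows, and the exact tests on small cases of known answer. Single CpGs, promoters and limma on mean percent were not simulated, so the simulation does not bear on the 0 calls there. All else was computed in Python 3.11.15 with scipy 1.17.1, numpy 2.4.6 and pandas 2.3.3.

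No hg19 annotation was used here. RefSeq promoter sequences (300 bases) were placed by CpG spacing within 5 Mb of their GRCh38.p14 position when at least 8 of their CpGs were listed and a single place matched. Of 20419 sequences with 8 or more CpGs, 9531 were placed once. For 98.2% of these, the placed sequence before or after on the chromosome had the same shift between builds, and only these were kept. That sequence could be of the same gene and at any distance, as the 9356 kept sequences belonged to 8118 genes. As a check on chance, sequences were also read backward, and 47 of these were placed. Promoter levels are means over at least 5 CpGs. Other settings were 20 reads, coverage weights, equal weight per window, at least 20 CpGs, bounds of 20 to 50%, no CpGs over the 99.9th percentile of coverage, windows chosen on 2 libraries, the coverage sets, a replicate block, leaving out each library, and, added after seeing the data, other limits for CpG and promoter levels.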

Additional observations from a re-analysis of the deposited data

How the results depend on the processing

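Of the 285 recomputed values, 262 were classed as unchanged. For differences this meant the same direction and the same side of the 0.05 threshold. For counts, and for the share of member CpGs at 20 to 80%, it meant a value within a set distance of the reported one. The exact permutation tests of SAM against control cannot go below 0.1, so they could not change side. The mean difference at member CpGs (0.0119 points as reported) changed sign with 20 reads (-0.0531), with coverage weights (-2.15), with windows chosen on SAM 1 and control 1 and compared over the other 4 libraries (-0.151), and within coverage set B (-0.154). Leaving out 1 library gave -0.0793 to 0.0737 points, below 0 without SAM replicate 1 (-0.0305) and without control replicate 1 (-0.0793). The dense CpG difference (-6.74 points) was -6.64 with windows chosen on SAM 1 and control 1, -6.73 within set A, -6.75 within set B and -6.75 to -6.72 without 1 library. It was -9.54 with equal weight per window, -8.46 with coverage weights, -8.02 with bounds of 20 to 50%, -7.71 with 20 reads and -5.15 with at least 20 CpGs, each with 6 libraries lower. With fewer libraries the sign-flip test cannot reach 0.05. Leaving out 1 library, the member mean was higher with SAM on 7 (without control replicate 1) to 13 of 22 chromosomes, not 11. For dense CpGs inside members, SAM minus control (-0.105 points) was -0.171 to -0.0595 without 1 library, and for members against windows over 60% (-0.190 points) it was -0.248 to -0.146, and -0.314 with windows chosen on SAM 1 and control 1. The share of member CpGs at 20 to 80% (22.1%) was 20.7% with bounds of 20 to 50% and 14.3% with CpG limits of 30 and 70%. The number of promoters over 80% was 11 with at least 8 CpGs each, not 21. The counts of called windows, CpGs and promoters were 0 under all settings run, and fewer windows (1542 with 20 reads, 1051 with 20 CpGs) were tested in some. On the log2 ratio chr7:76100001-76200000 was at -1.12 as reported and 0.00768 with 20 reads. With limma on the mean percent, the windows chr7:76100001-76200000, chr10:89100001-89200000 and chr18:55700001-55800000 were higher with SAM by 0.0395, 0.712 and 0.294 points, against lower in summed reads. The causes were not tested.

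With a replicate block the member difference was 0.0119 points, and 0 windows, CpGs and promoters were called, so the block changed no call. Same-numbered SAM and control libraries deviated from their group means together over member windows with correlations of 0.0918, 0.0795 and 0.1001, and each library correlated best with its own number, a hint from the data and not from the design. The labels do not say that a number marks a shared culture. Depth limits the precision at single CpGs, with a median of 35 to 38 reads at member CpGs in the shallowest libraries.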
